A study of Mus musculus with 46 samples.

Results

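The baseline difference between ATF4 KO and wild type mouse embryonic fibroblasts (MEFs) was read from 11 ATF4 KO and 11 wild type RNA-seq libraries, all of cells kept for 7 h in vehicle (DMSO) and labelled as biological replicates. The other 24 of the 46 libraries, 12 of each genotype, came from the same lines exposed for that time to borrelidin, which blocks threonyl-tRNA synthetase, at 600 nM in DMSO. The wild type MEFs were purchased, and the ATF4 KO line was made in house by transfection of a Cas9 complex with guides against Atf4, so genotype and line cannot be told apart here, and the p-values measure the spread between libraries of 1 line per genotype. Members are genes inside 5 segments of GRCm38, on chromosome 15 (9.07 to 37.01 Mb), 18 (4.63 to 10.56 Mb), 4 (5.64 to 55.53 Mb), 6 (13.83 to 31.56 Mb) and 9 (5.31 to 13.29 Mb), because identifiers elsewhere in the deposited count table do not match their rows. Of 55416 identifiers, 1370 lie in these segments, and 370 of them, 318 protein-coding, passed the filter on low counts, among 8469 rows tested in all. Of the 1000 segment genes that did not pass, 512 had no count in the 22 libraries. Rows outside the segments entered the fit as intervals without a gene name. Atf4 lies outside the segments, so its own transcript was not analysed here and the knockout was not checked in these counts.

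ATF4 is a transcription factor of the integrated stress response, in which kinases such as GCN2 and PERK phosphorylate eIF2α, general translation falls and translation of Atf4 mRNA rises. It binds as a dimer, often with C/EBP proteins, to C/EBP-ATF response elements and is known for inducing amino acid transporters, amino acid synthesis enzymes and aminoacyl-tRNA synthetases. In unstressed fibroblasts ATF4 protein is usually low, and cells without it depend on supplied amino acids and are more exposed to oxidative stress.

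Each vehicle library had between 2444047 and 3467765 counts assigned to identifiers, and the segments held 7.66% to 8.98% of them. Reads overlapping no annotated feature made up 66.4% to 70.7% of a library. The libraries fell into 2 sets that the labels do not mention and that were found in these counts. Set 1 holds wild type replicates 1 to 8 and ATF4 KO replicates 1 to 3, and set 2 holds the remaining 3 wild type and 8 ATF4 KO libraries. Set was a term of the fits across both sets unless a fit without it is named. Since the sets were found in the counts tested, no test of the set term is given. For the same reason, p-values for a difference of the genotype effect between the sets are descriptive only. Unless stated otherwise, levels are CPM, read counts scaled to library totals after TMM normalization, fold changes are log2 of ATF4 KO over wild type with standard errors, and adjusted p-values come from edgeR's quasi-likelihood test with Benjamini-Hochberg adjustment over all 8469 intervals, called at 0.05.

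Of the 370 segment genes, 93 were higher and 82 lower in ATF4 KO, 47.3% in all. The same test called 39.2% of all intervals, 18.8% as higher and 20.4% as lower. Counts for the gene lists below are to be read beside these shares, and a count near them is no result about the list. All but 3 of the 175 called genes had the same sign in each library set fitted alone. Within set 1, 59 of the 93 higher and 56 of the 82 lower genes were also called in that direction. Within set 2 these were 67 and 51, and 71 genes were called in both sets with the same sign. Over all intervals, 996 of 1591 higher and 1097 of 1726 lower were called again within set 1, and 1021 and 1090 within set 2. The sets are parts of the libraries of the main fit, so such agreement is not independent of it. Changes of at least 2-fold were found in 12 higher and 4 lower genes, against 4.88% of all intervals in either direction, and 7 higher and 7 lower genes passed an adjusted p of 1e-10, against 2.77% of all intervals. The 11 libraries of each genotype did not overlap for 24 genes, 16 higher and 8 lower in ATF4 KO, where 5.38% of all intervals separated in this way.

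Genes of innate immune sensing were among those with the largest rises. Of 16 tested genes of innate immune and NF-kB signalling, 9 were higher, 1 was lower and 6 were not called, and their median log2 fold change was 0.23, beside -0.0021 over all intervals. Ddx58 (chromosome 4, 40203773 to 40239828, minus strand), which encodes the cytoplasmic RNA sensor RIG-I, was at 123 to 319 CPM (median 247) in wild type and 1095 to 1755 CPM (median 1527) in ATF4 KO. No library of one genotype reached the range of the other, and within wild type the set 2 libraries were the lowest, at 123 to 142 CPM. The change was 7.86-fold (log2 fold change 2.97 ± 0.13, adjusted p = 5.49e-19), with 2.59 in set 1 and 3.44 in set 2. Trim14 (chromosome 4, 46493781 to 46536141, minus strand) encodes a mitochondrial adaptor of antiviral signalling and was at 3.40 to 14.5 CPM (median 9.14) in wild type and 35.3 to 74.1 CPM (median 51.6) in ATF4 KO. Its log2 fold change was 2.94 ± 0.16 (adjusted p = 2.96e-16), again without overlap of the groups. The wild type libraries of set 2, at 3.40 to 5.53 CPM, were again the lowest of wild type. Exons of genes on the opposite strand, Gm16731 among them, cover 38.0% of the exon bases of Trim14, and the strand setting of the counting is not given in the sources used here. Gm16731, a processed transcript, rose as well (1.75 ± 0.18), and the reads of the pair cannot be told apart. Tdrd7 (chromosome 4, 45965334 to 46034761, plus strand), an interferon-inducible tudor domain protein, was at 160.2 to 200.4 CPM (median 181) in wild type and 431 to 619 CPM (median 521) in ATF4 KO. The genotypes did not overlap in either set, and the change was 3.02-fold (log2 fold change 1.60 ± 0.06, adjusted p = 1.52e-20).

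At the start of the chromosome 9 segment, adjacent inflammatory caspase genes rose at low levels. Casp12 (chromosome 9, 5345430 to 5373032, plus strand), a caspase of the endoplasmic reticulum, was at 1.82 to 6.39 CPM (median 5.56) in wild type and 14 to 37.3 CPM (median 18.9) in ATF4 KO, without overlap (log2 fold change 2.00 ± 0.22, adjusted p = 4.92e-09). Casp4, the sensor of cytosolic lipopolysaccharide, was below the level set for naming and is given because its values stood out. It had 32 counts over the 11 wild type libraries, with 2 libraries at 0, and 308 over the 11 ATF4 KO libraries, which did not overlap with wild type (log2 fold change 3.38 ± 0.27, adjusted p = 5.69e-12). Smaller rises in the list were those of Irf5, a transcription factor of interferon responses (0.32 ± 0.09), Akirin2 (0.28 ± 0.11), Map3k7, the kinase TAK1 (0.19 ± 0.04), and Tmem123 (0.17 ± 0.06). Otulin, which removes linear ubiquitin chains, fell (-0.30 ± 0.09), and the inhibitors of apoptosis Birc2 and Birc3 were at 0.07 ± 0.08 and 0.10 ± 0.10, neither called.

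**Figure D1:**
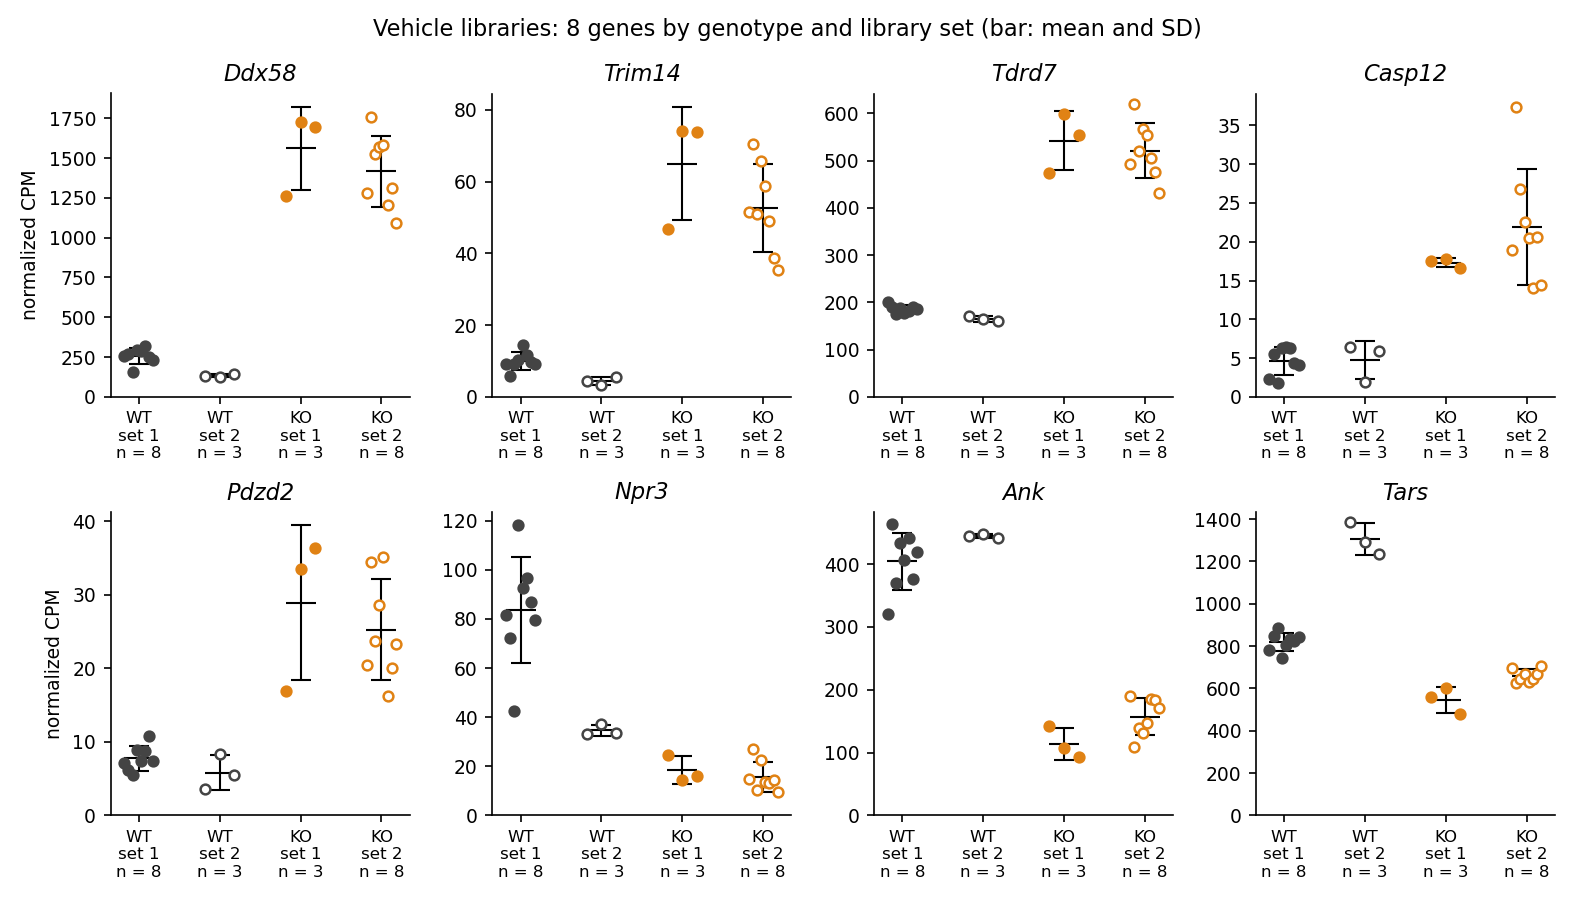
Normalized CPM (y axis, from 0) of 8 genes, chosen after their values were seen, in the 22 vehicle libraries, by genotype and library set (x axis); filled points are set 1, open points set 2, and the bars give mean and SD. ATF4 KO libraries lie above all wild type libraries for Ddx58, Trim14, Tdrd7, Casp12 and Pdzd2 and below them for Npr3, Ank and Tars. Wild type levels of Npr3, Ddx58, Tars, Trim14 and Tdrd7 also do not overlap between the sets.

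Promoters were searched for motifs known from interferon-induced genes and from ATF4 targets, the interferon-stimulated response element core GAAANNGAAA and the C/EBP-ATF element core TGATGNAA, on both strands of the 300 bases from 250 before to 50 after each RefSeq start (build GRCm38.p6). Promoters were found for 225 of the 370 tested genes. The first motif was present at 2 of 58 genes called higher, Ddx58 and Tdrd7, at 2 of 50 called lower and at 8 of 117 not called. The 2 lower genes, Skp2 and Lmbrd2, have overlapping windows that hold the same site. Over all promoters the first motif was present at 3.99% of 27025 genes. The second was present at 0 of 58 higher genes, at 3 of 50 lower genes (Tars, Lmbrd2 and Anp32b) and at 5 of 117 not called. Over all promoters it was present at 4.51% of the 27025 genes. These 3 promoters are shown because they hold a motif and belong to the genes with the largest called changes among the holders, with the motif in capitals:
Ddx58, chr4:40239776-40240075, minus strand: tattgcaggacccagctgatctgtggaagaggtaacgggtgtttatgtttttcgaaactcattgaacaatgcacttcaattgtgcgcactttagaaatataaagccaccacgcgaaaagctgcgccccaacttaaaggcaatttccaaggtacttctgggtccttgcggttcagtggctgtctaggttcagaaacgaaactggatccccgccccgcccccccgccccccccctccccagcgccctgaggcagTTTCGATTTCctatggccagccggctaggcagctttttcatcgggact
Tdrd7, chr4:45972047-45972346, plus strand: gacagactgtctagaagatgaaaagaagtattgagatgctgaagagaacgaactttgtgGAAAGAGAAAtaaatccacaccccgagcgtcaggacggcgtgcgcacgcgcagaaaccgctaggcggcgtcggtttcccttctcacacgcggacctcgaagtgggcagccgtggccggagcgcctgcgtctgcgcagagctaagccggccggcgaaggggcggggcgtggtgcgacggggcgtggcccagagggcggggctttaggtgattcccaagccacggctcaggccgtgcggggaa
Tars, chr15:11399609-11399908, minus strand: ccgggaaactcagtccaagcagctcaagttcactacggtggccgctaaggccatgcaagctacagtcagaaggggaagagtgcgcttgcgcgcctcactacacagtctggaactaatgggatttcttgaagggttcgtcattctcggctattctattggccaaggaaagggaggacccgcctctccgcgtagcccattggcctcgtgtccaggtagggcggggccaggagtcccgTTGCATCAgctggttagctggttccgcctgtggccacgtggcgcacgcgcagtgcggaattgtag
In Ddx58 the motif begins 2 bases after the start site, in Tdrd7 191 bases before it, and in Tars 15 bases before it. The RefSeq start used for Tdrd7 lies inside the annotated gene. A match is a match of letters, and binding was not measured.

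Genes of translation, tRNA and ribosome biogenesis fell or were not called. Of 21 tested, 10 were lower, 0 were higher at this threshold and 11 were not called, with a median log2 fold change of -0.22. Fitted alone, set 1 called 6 of them lower and set 2 called 11. Tars (chromosome 15, 11382301 to 11399665, minus strand), threonyl-tRNA synthetase and the target of borrelidin, was at 745 to 1388 CPM (median 845) in wild type and 480.4 to 708 CPM (median 643) in ATF4 KO. The groups did not overlap, although wild type itself was at 745 to 886 CPM in set 1 and 1237 to 1388 CPM in set 2. Its log2 fold change was -0.79 ± 0.06 (adjusted p = 8.52e-13), with -0.59 in set 1 and -0.96 in set 2, and this difference between the sets was itself called (-0.396 ± 0.10, adjusted p = 0.017). Gm8341, a processed pseudogene, was also lower (-0.62 ± 0.11), with ranges that overlapped, and was at -0.19 and not called without the set term. Pop1, a protein subunit of RNase P and RNase MRP, was at 275 to 379.9 CPM (median 314) in wild type and 167 to 230.4 CPM (median 194) in ATF4 KO, without overlap (log2 fold change -0.70 ± 0.06, adjusted p = 4.99e-11). Nol6, a nucleolar protein of small subunit assembly, was at 408 to 586 CPM (median 498) in wild type and 284 to 380.0 CPM (median 319.6) in ATF4 KO, likewise without overlap (-0.53 ± 0.05). Rida, a member of the list and an enzyme that removes reactive imines, is the neighbour of Pop1 among the tested genes and was lower too (-0.77 ± 0.09), with overlapping ranges. The remaining 6 lower members were Brix1, a factor of large subunit assembly (-0.40 ± 0.06), the ribosomal protein gene Rpl30 (-0.33 ± 0.07), Rpp25l (-0.24 ± 0.09), Polr1e, a subunit of RNA polymerase I (-0.23 ± 0.07), Mrpl50 (-0.22 ± 0.07) and Zfp622 (-0.17 ± 0.05). Rars2, the mitochondrial arginyl-tRNA synthetase, was at 0.06 ± 0.09 and was not called.

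The direction of change differed between the segments. In the chromosome 15 segment 33 of 61 tested genes were lower and 4 higher, with a median log2 fold change of -0.22. In the chromosome 18 segment 13 of 24 were higher and 1 lower (median 0.21), and in the chromosome 9 segment 10 of 18 were higher and 1 lower (median 0.23). The chromosome 4 segment, with 208 tested genes, had 52 higher and 34 lower (median 0.01), and the chromosome 6 segment had 14 higher and 13 lower of 59 (median -0.01). For chromosomes 15, 18 and 9 the shift was present in each ATF4 KO library. The median log2 ratio of the chromosome 15 genes to the wild type mean of the same set was -0.29 to -0.16 in the 11 ATF4 KO libraries and -0.06 to 0.09 in the 11 wild type libraries, each wild type library being compared with the others of its set. For chromosome 18 the ranges were 0.16 to 0.40 in ATF4 KO and -0.05 to 0.09 in wild type, and for chromosome 9 they were 0.17 to 0.38 and -0.09 to 0.08. For chromosomes 4 and 6 the ranges of the genotypes overlapped. Along chromosome 15 the first 16 tested genes, Nadk2 to 1810049J17Rik, had 12 lower (median -0.39), and the next 3 runs of 15 genes had 8, 7 and 6 lower (medians -0.17, -0.21 and -0.16). Translation genes and this segment share members, 6 of the 10 lower translation genes lying on chromosome 15, so these counts are not separate results. Likewise the innate immune list and the chromosome 9 segment share members, Casp4 and Tmem123 among them, and their counts are not separate either. The copy number of these chromosomes was not measured here.

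**Figure D2:**
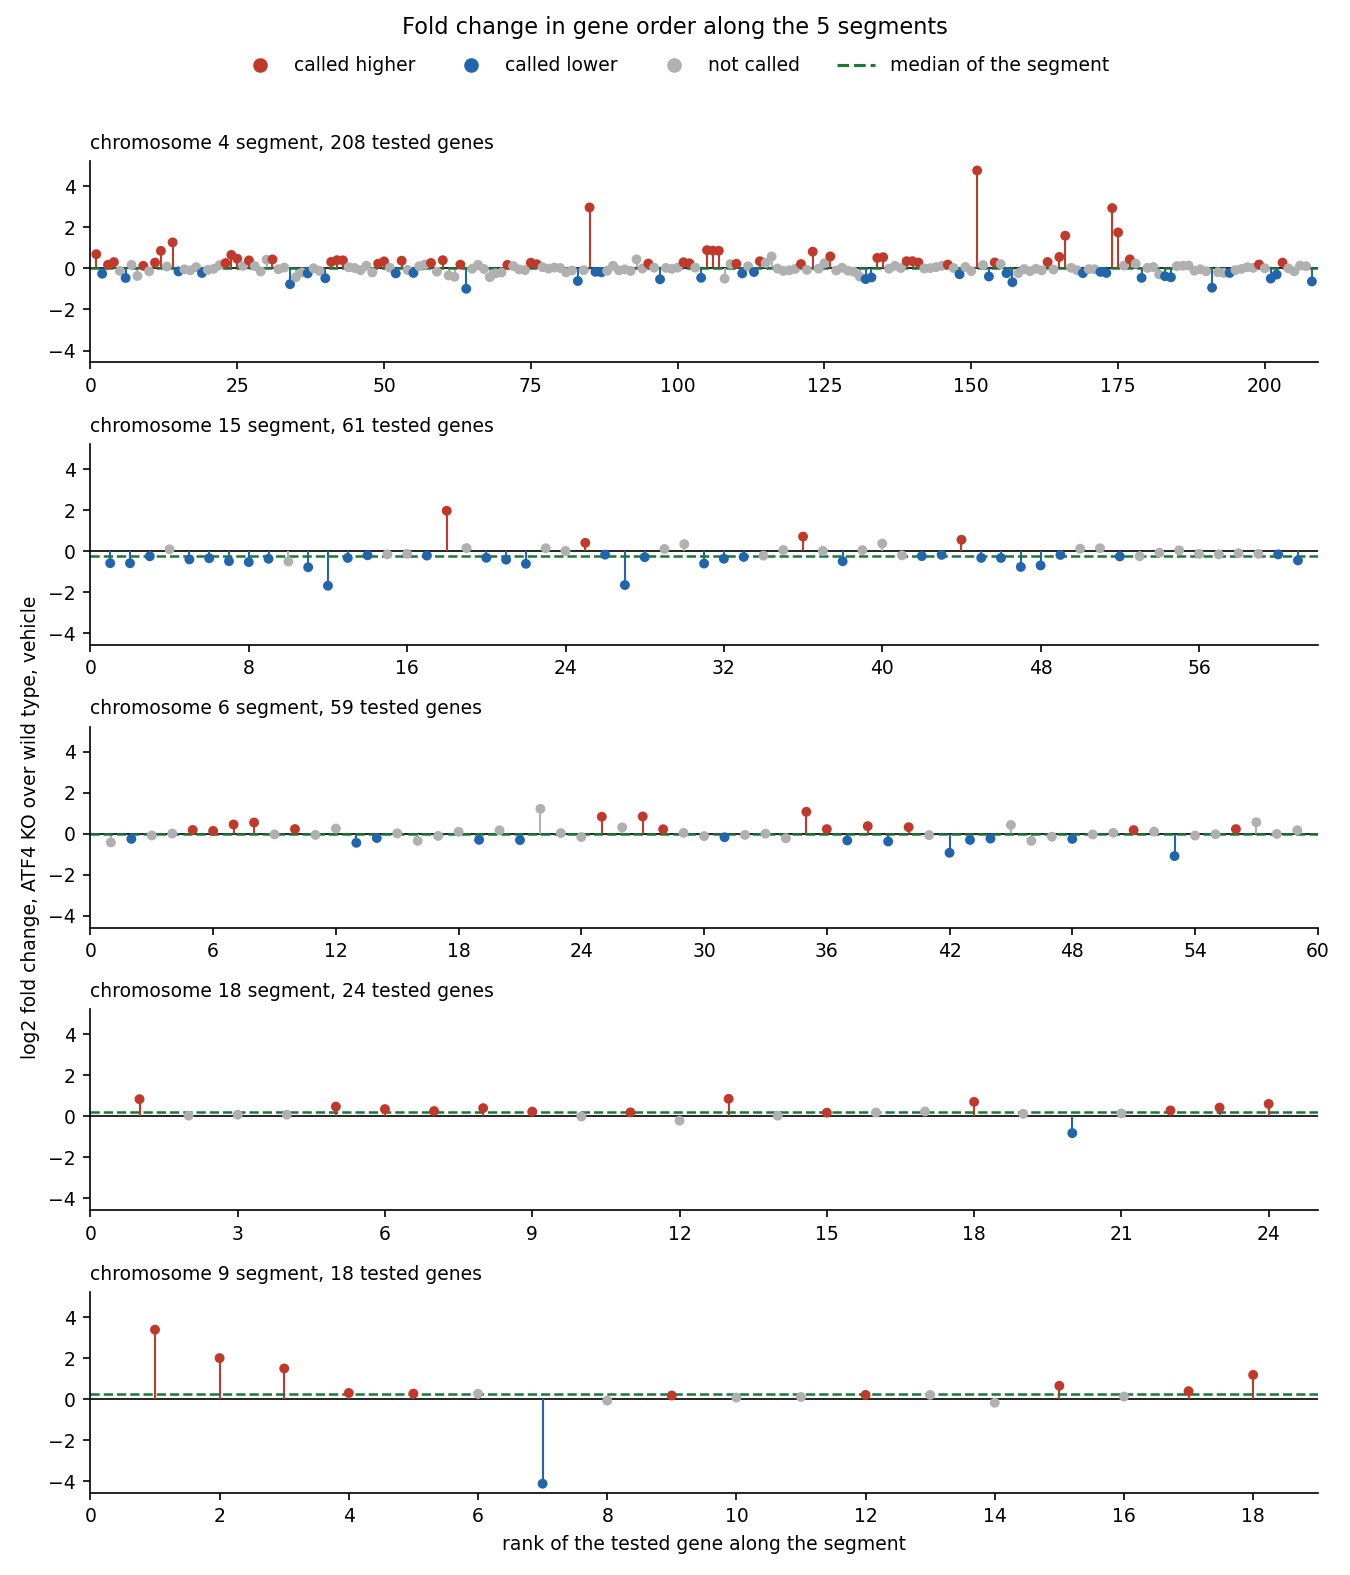
Log2 fold change of ATF4 KO over wild type under vehicle (y axis) of the 370 tested genes by their rank along each of the 5 segments (x axis); red is called higher, blue called lower, grey not called, and the dashed line is the median of the segment. The chromosome 15 segment has 33 lower and 4 higher genes, and the chromosome 18 and 9 segments have 13 and 10 higher genes and 1 lower gene each.

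Single genes went against the direction of their segment. Pdzd2, a PDZ domain protein on chromosome 15, was at 3.60 to 10.8 CPM (median 7.35) in wild type and 16.2 to 36.4 CPM (median 23.8) in ATF4 KO, with no overlap in either set (log2 fold change 1.97 ± 0.18, adjusted p = 1e-10). Colec12, a scavenger receptor on chromosome 18, was lower (-0.81 ± 0.18), with -1.44 in set 1 and -0.14 in set 2, and the sets differed (1.28 ± 0.27, adjusted p = 0.00732). Mmp3 (stromelysin-1), a matrix metalloproteinase on chromosome 9, had 257 counts over the wild type libraries, 14 to 32 per library, and 15 over the ATF4 KO libraries, 0 to 4 per library. This is the lowest log2 fold change of the tested segment genes (log2 fold change -4.13 ± 0.33, adjusted p = 4.54e-12), and at so few counts its size is uncertain.

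Several membrane and matrix genes were among the most reduced. Ank (chromosome 15, 27466677 to 27594909, plus strand), which mediates export of pyrophosphate and ATP from cells, was at 321 to 464 CPM (median 434) in wild type and 92.6 to 190.4 CPM (median 142) in ATF4 KO, a drop without overlap in either set (log2 fold change -1.65 ± 0.10, adjusted p = 1.3e-15). Npr3 (chromosome 15, 11839896 to 11907287, minus strand), the natriuretic peptide clearance receptor, was at 33.2 to 118 CPM (median 79.5) in wild type and 9.52 to 26.9 CPM (median 14.5) in ATF4 KO. The groups did not overlap, but wild type set 2 libraries, at 33.2 to 37.1 CPM, were the lowest of wild type and the change was -2.20 in set 1 and -1.13 in set 2 (log2 fold change -1.69 ± 0.20, adjusted p = 1.8e-08 over both). Tmeff1, a transmembrane protein with follistatin domains, was lower (-0.94 ± 0.12), as was Smo, the signal transducer of the Hedgehog pathway (-0.30 ± 0.05), both with ranges that overlapped across sets and separated within each set. Smo was at -0.086 and not called without the set term. Cav1 and Cav2, the caveolins that coat caveolae, were higher (0.55 ± 0.09 and 0.45 ± 0.08). Cav1 was at 326 to 494 CPM (median 445) in wild type and 495 to 805 CPM (median 648) in ATF4 KO, without overlap, and rose more in set 2 than in set 1 (difference 0.533 ± 0.14, adjusted p = 0.0245). In all, 5 of 19 tested receptors and caveolar genes were higher and 5 lower. Extracellular matrix and secreted proteins were divided in the same way, 5 higher and 5 lower of 15, with Pdgfd, a platelet-derived growth factor (1.49 ± 0.24), Sema5a (0.71 ± 0.23) and Matn2 (0.55 ± 0.10) higher and the proteoglycan Sdc2 (-0.49 ± 0.09), Mmp16 (-0.48 ± 0.12) and Fam3c (-0.30 ± 0.06) lower.

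Of 26 tested metabolic enzymes and transporters, 9 were lower and 2 higher (median -0.10). Besides Ank, the smallest p-values of lower list members were those of Slc44a1, a choline transporter (-0.49 ± 0.06), and Alg2 (-0.38 ± 0.06). Alg2 is a mannosyltransferase of N-glycan assembly. The higher members were Manea (0.40 ± 0.08) and Galt (0.35 ± 0.09). Nadk2, an enzyme gene outside the list, was at 0.666-fold of wild type in ATF4 KO (95% interval 0.62 to 0.715). Of 15 tested genes of mitochondrial proteins, 4 were lower and 3 higher, near the 47.3% called of all segment genes. The lower ones were Ndufa5 (-0.31 ± 0.08) and Ndufaf4 (-0.22 ± 0.07) of complex I, Cox6c of complex IV (-0.26 ± 0.07) and Mrpl50. Cell cycle and DNA repair genes were lower in 8 and higher in 3 of 20 (median -0.10). Skp2, the F-box protein that targets p27 for degradation, was at 339 to 514 CPM (median 367) in wild type and 244 to 326 CPM (median 299) in ATF4 KO, without overlap (log2 fold change -0.59 ± 0.05, adjusted p = 2.34e-12). Nbn of the MRN complex (-0.24 ± 0.05), Rad1 (-0.35 ± 0.09) and Ccne2 (-0.14 ± 0.06) were lower by less. Of 15 genes of RNA capping, splicing and export, 6 were lower and 2 higher. Drosha, the nuclease that cuts primary microRNAs, was at 465 to 607 CPM (median 500.3) in wild type and 338 to 463 CPM (median 411) in ATF4 KO, without overlap (-0.42 ± 0.05), and Pnisr, a nuclear speckle protein, was higher (0.34 ± 0.07). Several of these calls depended on the library set term. Without it Nbn was at 0.044, Pnisr at -0.14, Alg2 at -0.070, Ndufa5 at -0.029, Ndufaf4 at -0.020 and Cox6c at -0.12, none called. Ndufaf4 was at -0.043 in set 1 alone. Ndufa5, Ndufaf4, Cox6c and Nbn also lost the call with a replicate block beside the set term (-0.26, -0.20, -0.21 and -0.17).

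Of 25 tested genes of the actin cytoskeleton and adhesion, 9 were higher and 2 lower (median 0.14), with 7 and 2 in set 1 and 12 and 2 in set 2. Among them were Jcad, a junctional protein, at 185 to 332 CPM (median 223) in wild type and 332 to 462 CPM (median 411) in ATF4 KO, without overlap (0.84 ± 0.09), Tln1, which activates integrins (0.52 ± 0.08), Arhgap12 (0.48 ± 0.06) and Rock1 (0.43 ± 0.06) as higher, and Rai14 (-0.49 ± 0.07) and Tpm2 (-0.44 ± 0.08) as lower. Of 27 autophagy, lysosome and vesicle genes, 10 were higher and 4 lower (median 0.11), with 6 and 4 in set 1 and 9 and 4 in set 2. Trp53inp1, a p53 target that takes part in autophagy, was at 16.4 to 29.2 CPM (median 21.5) in wild type and 32.1 to 64.1 CPM (median 49.1) in ATF4 KO, without overlap (log2 fold change 1.27 ± 0.13, adjusted p = 6.79e-10). Plekhf2, an endosomal protein, was at 40.3 to 84.3 CPM (median 48.9) in wild type and 78.1 to 145 CPM (median 118) in ATF4 KO. Its ranges met across sets and separated within each (0.86 ± 0.08). Rusc2 (0.59 ± 0.06, but 0.29 and not called without the set term), Tbc1d2 (0.44 ± 0.13) and Retreg1, a receptor for autophagy of the endoplasmic reticulum (0.40 ± 0.10), were higher, and Atp6v1f, a subunit of the vacuolar ATPase, was lower (-0.38 ± 0.07).

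Among 28 tested transcription factors and chromatin regulators, 8 were higher and 6 lower, Zfp706 (-0.45 ± 0.05, but -0.14 and not called without the set term) among the latter. The row named Pax5, a B cell factor, was below the level set for naming by size, and its match of name and row is less certain. It had 11 counts over the wild type libraries, 5 of them at 0, and 309 over the ATF4 KO libraries, 11 to 51 per library (log2 fold change 4.77 ± 0.43, adjusted p = 5.85e-11). Creb3, a transcription factor of the endoplasmic reticulum and Golgi, was at 148 to 213 CPM (median 172) in wild type and 203 to 341 CPM (median 301) in ATF4 KO, with ranges that overlapped across sets and separated within each (0.55 ± 0.06). Exons on the opposite strand cover 20.8% of its exon bases. Klf4 (-0.63 ± 0.14) and Bach2, a repressor related to CNC factors (-0.99 ± 0.22), were lower, Bach2 with -1.56 in set 1 and -0.24 in set 2. Of 19 chaperones and quality control genes, 7 were higher and 6 lower, the latter including Sec61b of the translocon (-0.43 ± 0.09), the ligase March6 (-0.37 ± 0.06) and the chaperonin subunit Cct5 (-0.28 ± 0.05). Ubiquitin ligases, E2 enzymes and deubiquitinases were divided evenly, 6 higher and 6 lower of 25, near the 47.3% called of all segment genes. Fbxo10 was the lowest of those called (-0.67 ± 0.12), and Ubap1, a member of ESCRT-I, was higher (0.30 ± 0.05). Of 10 ciliary and centrosomal genes 4 were higher, Cep126 (0.65 ± 0.10) and Tmem67 (0.48 ± 0.08) among them, and 2 lower. Of 11 genes listed as stress-inducible, 3 were higher (Ddx58, Trp53inp1 and Creb3) and 3 lower (Tars, Klf4 and Bach2). Other genes with large changes belonged to no list: Ccdc82 was at 52.7 to 101 CPM (median 91.6) in wild type and 120.2 to 231 CPM (median 143) in ATF4 KO, without overlap (1.18 ± 0.07), Mpp7 rose (0.86 ± 0.09), Fam219a rose with its antisense gene Fam219aos (0.87 ± 0.08 and 0.89 ± 0.14, reads not separable) and Tmem64 (-0.77 ± 0.07) and Dap (-0.61 ± 0.08) fell. Of the unnamed gene models, Gm12404 (0.86 ± 0.11) and Gm42547 (0.83 ± 0.10) were higher. Mest, an imprinted gene, was lower (-1.09 ± 0.18), and its neighbour Copg2 was at -0.09 ± 0.11. Mest overlapped between the genotypes in set 1. Both lie at the end of the chromosome 6 segment, where the match of name and row is less certain, and their exons overlap those of genes on the opposite strand.

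**Figure D3:**
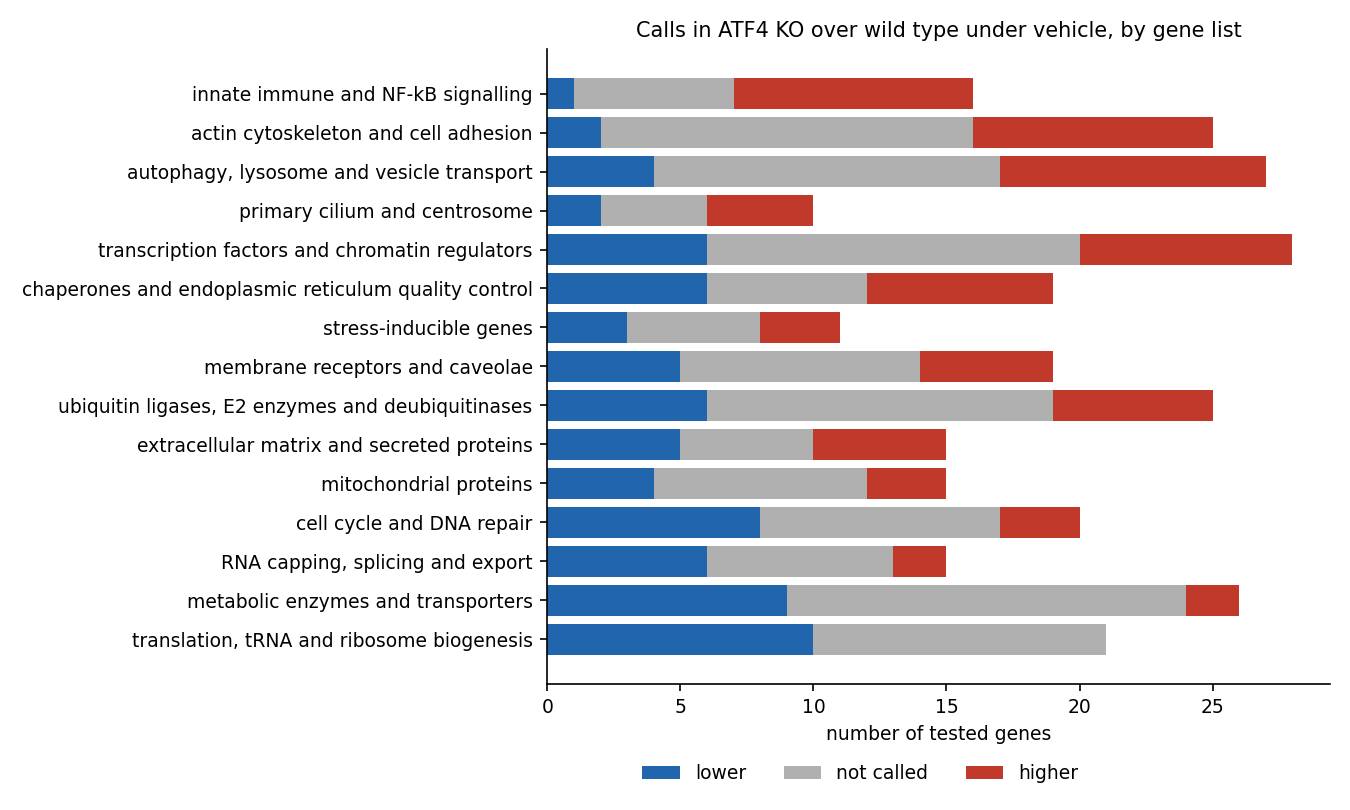
Number of tested genes (x axis) called lower (blue), not called (grey) and called higher (red) in ATF4 KO under vehicle, for 15 gene lists restricted to the segments. Innate immune genes had 9 higher and 1 lower of 16, and translation genes had 10 lower and none higher of 21 at adjusted p under 0.05.

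Cell type markers were read as far as they lie in the segments, and the usual fibroblast collagen genes outside them were not analysed here. In bulk RNA, fewer cells of a type and less RNA per cell cannot be told apart. The marker sums below are CPM of library totals without TMM normalization and without the filter on low counts. The 10 fibroblast markers summed to 1844 to 2421 CPM in wild type and 1862 to 2256 CPM in ATF4 KO, 8 of them were tested, and Cav1 was higher and Sdc2 and Tpm2 lower. Epithelial markers summed to 1.33 to 3.35 CPM in wild type and 0.818 to 4.87 CPM in ATF4 KO, and none passed the filter. Neuronal markers summed to 3.27 to 14.1 CPM in wild type and 4.62 to 12.2 CPM in ATF4 KO, with Gabbr2 alone tested (0.23 ± 0.26), and muscle markers to 42.9 to 69.1 CPM in wild type and 41.2 to 64.1 CPM in ATF4 KO, where Cavin4 (-0.18 ± 0.08) and Lmod2 (1.22 ± 0.52) were not called. Lymphocyte markers summed to 77.5 to 119 CPM in wild type and 80.5 to 121 CPM in ATF4 KO. Of these Ccl21a was at 0, Cd72 (0.04 ± 0.08) and Ccl27a (0.27 ± 0.22) were not called, and the row named Pax5 was called, with the doubt about its name given above.

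The genotype effect was compared between the library sets with an interaction term. It was called for 18 of the 370 genes, 4.86%, beside 3.19% of all intervals. The sets were found in these same counts, so the p-values of this term are descriptive only. The smallest p-values were those of Ncbp1, a subunit of the cap-binding complex (set 2 minus set 1 -0.444 ± 0.08, adjusted p = 0.00361), Zeb1, a factor of mesenchymal cells (0.775 ± 0.15, adjusted p = 0.00469), and the deubiquitinase Usp45 (-0.562 ± 0.12, adjusted p = 0.00627). Zeb1 was at -0.30 in set 1 and 0.51 in set 2, and Ncbp1 at -0.01 in set 1 and -0.43 in set 2. For Ddx58 the rise was larger in set 2 (difference 0.825 ± 0.21, adjusted p = 0.0212). The sets differ in wild type levels and hold unequal numbers of each genotype, and whether set stands for a culture or sequencing batch is not given in the sources used here.

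**Figure D4:**
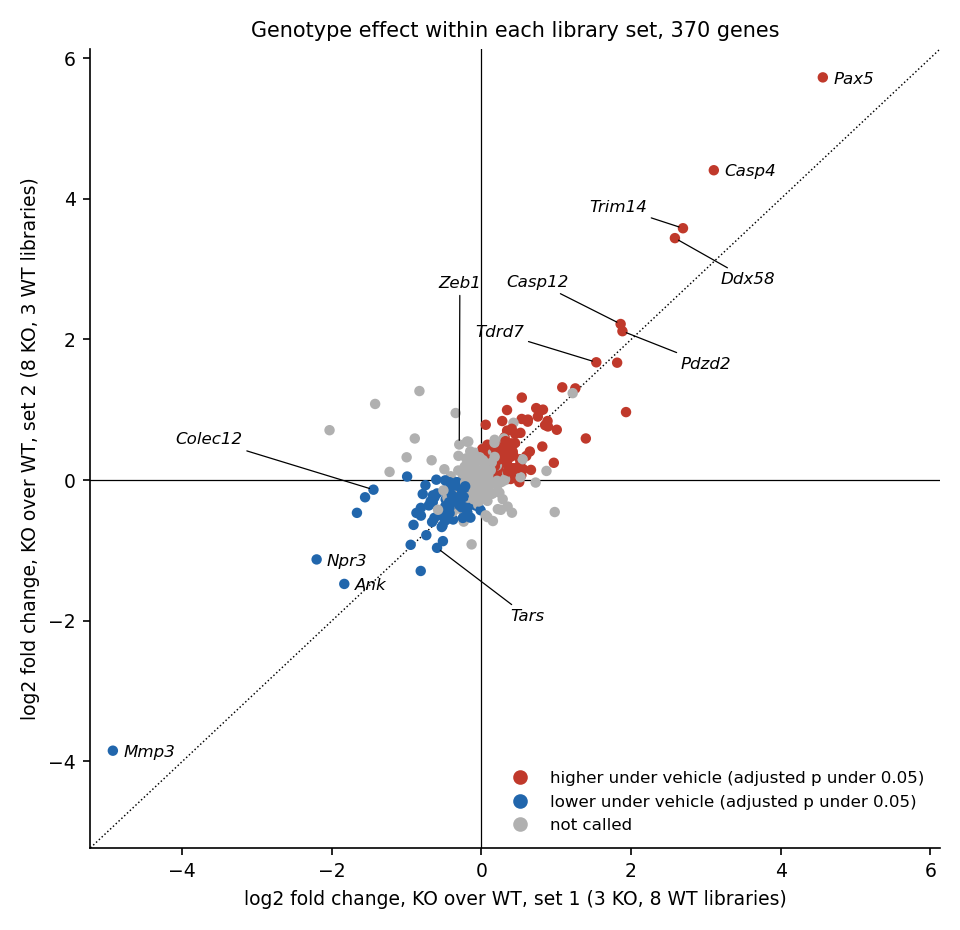
Log2 fold change of ATF4 KO over wild type within set 1 (x axis, 3 and 8 libraries) and within set 2 (y axis, 8 and 3 libraries), 1 point per gene, coloured by the call over both sets; the dotted line marks equal values. Genes with the largest changes lie on the same side of 0 in both sets, and Zeb1 lies on opposite sides.

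The genotypes were also compared in the 24 borrelidin libraries, which share no library with the vehicle comparison. There 234 of 370 genes were called, 63.2%, beside 51.4% of all intervals. Of the 175 genes called under vehicle, 126 (72%) were called in the same direction under borrelidin, 11 in the opposite direction and 38 not at all, and the 126 were 53.8% of the borrelidin calls. These shares were not counted over all intervals, so whether they are particular to the segment genes was not tested. The change was larger in size under borrelidin for 100 of the 126, a count likewise not taken over all intervals. Over all intervals the quartiles of the log2 fold change were -0.20 and 0.20 under vehicle and -0.30 and 0.29 under borrelidin. The difference between the treatments was called for 113 genes, 30.5%, beside 20.7% of all intervals. In set 2 alone it was called for 72 genes, and without the set term for 163. Of the 113, the smallest p-values were those of Tars, Mdfic and C9orf72. Tars was -0.79 ± 0.06 under vehicle and -1.98 ± 0.05 under borrelidin (difference -1.20 ± 0.08, adjusted p = 2.2e-18). Mdfic, an inhibitor of MyoD family factors (0.01 ± 0.06 and -1.22 ± 0.06), and C9orf72, a regulator of autophagy and endosomal traffic (-0.10 ± 0.07 and -1.19 ± 0.07), did not pass the test under vehicle and were lower in ATF4 KO under borrelidin. Nol6 was at -1.24 ± 0.06 under borrelidin and Pop1 at -1.10 ± 0.07, both called and both further from 0 than at baseline. Trim14 (5.17 ± 0.19), Ddx58 (4.51 ± 0.08) and Tdrd7 (2.34 ± 0.07) were raised more under borrelidin, with differences of 2.29 ± 0.32, adjusted p = 1.29e-07, 1.56 ± 0.18, adjusted p = 5.95e-10 and 0.74 ± 0.09, adjusted p = 1.69e-08. Trp53inp1, higher at baseline, was at 0.08 ± 0.10 under borrelidin (difference -1.21 ± 0.17, adjusted p = 1.09e-07), and Bach2, lower at baseline, at 0.25 ± 0.15. The medians of the chromosome 15, 18 and 9 segments under borrelidin were -0.29, 0.41 and 0.31. All 12 wild type borrelidin libraries belong to set 2, so the set term there rests on ATF4 KO libraries.

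**Figure D5:**
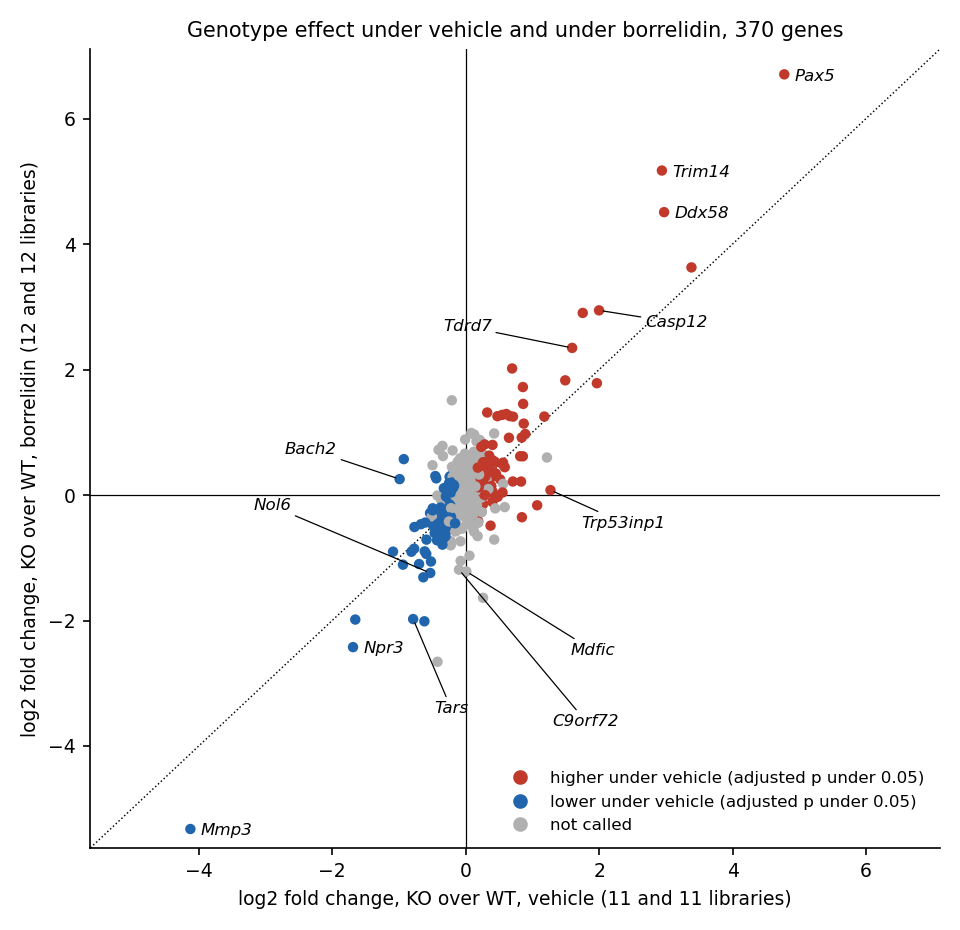
Log2 fold change of ATF4 KO over wild type under vehicle (x axis, 22 libraries) and under borrelidin (y axis, 24 other libraries), 1 point per gene, coloured by the call under vehicle; the dotted line marks equal values. Ddx58, Trim14 and Tdrd7 lie above the line, Tars and Nol6 below it, and Trp53inp1 and Bach2 are near 0 under borrelidin.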

How the data were processed

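RNA-seq libraries of wild type and ATF4 KO MEFs were analysed from the deposited raw count per identifier, which the authors left unnormalized. The submitters' processing notes name HISAT2, HTSeq, limma and mm10. Their versions and the strand setting were not found in these notes or the methods. The 5 rows that name no gene stayed out (66.4% to 70.7% of a vehicle library's reads had no feature). Genes were placed with GENCODE M21. Counts of 22 vehicle libraries were filtered (filterByExpr), normalized (TMM) and tested in edgeR 4.0.16 with library set and genotype as terms. DESeq2 1.42.0 and limma 3.58.1 served as alternatives, beside other factors, filters and thresholds, fits without the set term, within each set or with all 46 libraries, a replicate block and leaving out each library. Library sets came from component scores of these counts. Exact permutation p-values of single genes are not given, since the genes were chosen with separated groups in view. On simulated counts of the vehicle comparison (8469 intervals), edgeR called 64.2%, 95.5% and 100% of log2 changes of 0.5, 1 and 2, with 8 false calls. These changes were given to 67, 67 and 66 intervals, and no genotype effect differed between the sets. In the data 39.2% of intervals were called, so these rates need not hold there. Totals of 2444047 to 3467765 counts per library limit precision for low genes. No 2 vehicle libraries were duplicates (lowest chi-square per degree of freedom 2.104).

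Members, gene lists and tests were chosen with earlier results of these data known. Genes were named by a rule (mean of at least 3 log2 CPM, called, same sign in both sets, 15 highest and 15 lowest, 3 smallest p of each list and of each interaction). Other list members were named after their values were seen.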

Additional observations from a re-analysis of the deposited data

Results flagged for a closer look

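The difference of the genotype effect between treatments was called for 27 of the 66 genes named by the rule. The test was edgeR's quasi-likelihood test of the interaction (adjusted over all intervals). On the log2 scale, the effect under borrelidin minus that under vehicle was positive for Trim14 (2.29), Ddx58 (1.56), Bach2 (1.23), Gm16731 (1.17), Mpp7 (0.87), Tmem67 (0.77), Tdrd7 (0.74), Creb3 (0.72), Gm12404 (0.58), Nbn (0.52), Zfr (0.39) and Slc44a1 (0.26). It was negative for Gm8341 (-1.41), Mdfic (-1.24), Trp53inp1 (-1.21), Tars (-1.20), C9orf72 (-1.11), Nol6 (-0.72), Klf4 (-0.69), Gm42547 (-0.63), Arhgap12 (-0.52), Usp45 (-0.49), Pop1 (-0.42), Skp2 (-0.36), Smo (-0.36), Ank (-0.34) and Ncbp1 (-0.22). Some genes with a positive difference, such as Bach2, Slc44a1, Nbn and Zfr, were lower in ATF4 KO under vehicle. There the difference can mean a smaller reduction, none or a rise under borrelidin.

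The genotype effect differed between the library sets for 10 of the 66 genes named by the rule, by the same kind of test. The sets were found in these counts, so these calls are descriptive only. Set 2 minus set 1 was positive for Colec12 (1.28), Ddx58 (0.82), Zeb1 (0.78), Jcad (0.61), Sdc2 (0.56) and Cav1 (0.53), and negative for Usp45 (-0.56), Ncbp1 (-0.44), Tars (-0.40) and Pop1 (-0.38). The wild type libraries of set 2 number 3 and the ATF4 KO libraries of set 1 also 3.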

How the results depend on the processing

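Of the genes given here, the 66 named by the rule were followed singly through all alternatives, and the other list members were not. DESeq2, limma voom, RLE factors and TMM factors from the segment genes alone left direction and call of all 66 as they were. Over all alternatives, 2105 of 2178 values for these genes kept both, 38 lost the call, 9 gained one and 26 changed sign. Without the library set term 98 segment genes were higher and 42 lower, 36 of the latter shared with the 82. At adjusted p under 1e-10 the counts were 166 higher and 69 lower over all intervals and 7 and 7 in the segments, and with a log2 change of at least 1 they were 225, 188, 12 and 4. Leaving out 1 library gave 1491 to 1762 intervals higher and 1485 to 1758 lower, and 84 to 100 segment genes higher and 68 to 88 lower. In set 2 alone the treatments differed for 72 genes in place of 113, and without the set term for 163. Of 2 alternatives chosen after seeing the data, protein-coding genes without shared exons gave 52 higher of 213, and leaving out the end of the chromosome 6 segment moved neither count by over 1.5 times.

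Same-numbered libraries did not deviate together (0 of 10 pairs with a correlation over 0.1 within group and set, -0.0536 to 0.0768), so the numbers do not pair them. With the replicate block and the set term 1056 intervals were higher and 1236 lower, and with the replicate block alone 42 segment genes were lower.

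Signs changed for genes near 0 or bound to a set. Without the set term the log2 fold change was 0.10 for C9orf72, -0.0058 for Cd72, 0.13 for Copg2, 0.044 for Nbn and -0.14 for Pnisr. With the replicate block and no set term it was 0.13 for C9orf72, 0.079 for Cavin4, -0.033 for Cd72, 0.13 for Copg2, 0.075 for Nbn, 0.014 for Ncbp1, 0.0079 for Ndufaf4 and -0.26 for Pnisr, and with both it was -0.015 for Cd72 and -0.025 for Mdfic. In set 1 alone it was 0.015 for C9orf72, -0.039 for Cd72, -0.345 for Gabbr2, -0.0060 for Mdfic and -0.30 for Zeb1, and in set 2 alone 0.14 for Copg2 and -0.027 for Usp45. Cd72 was at -0.041 with all 46 libraries, and Mdfic at -0.012 without a filter and from -0.017 (without ATF4 KO replicate 1) to 0.070 (without ATF4 KO replicate 3) when 1 library was left out, with -0.0014 without wild type replicate 8. Ndufaf4 lost its call without wild type replicate 9 (-0.15) or 10 (-0.15), Usp45 without ATF4 KO replicate 2 (0.19) or 3 (0.16), and Lmod2 gained one without any of 5 libraries. The cause was not tested. Genes such as Mmp3, Pax5 and Casp4 had 0 counts in some libraries, and their fold changes depend on few counts.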
